A study of Mus musculus with 54 samples.

Results

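Normal cerebellum of C57BL/6 mice, called BL6 here, was compared 5 h after 1 Gy of radiation with cerebellum of the same strain 5 h after sham treatment. The comparison was defined by the sample titles and holds 24 of the 54 deposited files, which are 6 of 18 libraries, 3 per group. The 1 Gy libraries carry the sample numbers 2, 3 and 4 and the sham libraries the numbers 1, 2 and 3. No transgene, mutation or further agent is named for these mice, and the labels used here give neither age nor sex. Whether each numbered sample was its own animal is not stated in the labels, and the p-values therefore cover the spread between 6 libraries that may be technical. The tissue was sequenced as bulk RNA, in which fewer cells of a type and less RNA per cell cannot be told apart. Brain tumours of SmoA1 mice, labelled homozygous and carrying an activated Smoothened transgene, were collected under the same 1 Gy and sham treatments and were used only to test whether the BL6 response differed from theirs. The promoter of that transgene is not given in the labels.

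Ionizing radiation breaks DNA, and the kinases ATM and ATR then stabilise the transcription factor p53. p53 switches on genes that stop the cell cycle (Cdkn1a, Ccng1, Btg2), start apoptosis (Bax, Bbc3, Fas, Tnfrsf10b), limit p53 itself (Mdm2) or repair DNA. In the cerebellum, dividing granule neuron progenitors of young animals are known for their sensitivity to radiation, whereas mature granule and Purkinje neurons do not divide. Eda2r encodes a receptor of the tumour necrosis factor family that binds the A2 form of ectodysplasin, and its gene is a known target of p53.

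Few changes were called with 3 libraries per group. Among 15918 genes tested with the edgeR quasi-likelihood test, 2 passed a Benjamini-Hochberg adjusted p of 0.05, which is 0.0126% of those tested. Eda2r rose and was the 1 gene called higher (0.00628%). The other called gene was lower (0.00628%), lies on the X chromosome and is not described, because X- and Y-linked genes other than Eda2r were left out for the reason given with the libraries. None of 15384 autosomal genes was called by edgeR or by DESeq2. At an unadjusted p under 0.05 edgeR placed 607 autosomal genes, and over all genes 634 in edgeR (3.98%) and 135 in DESeq2. The median log2 fold change over all genes tested was -0.0029, and 49.5% of fold changes were positive. A gene that was not called may still have changed, since the median half-width of the 95% interval was 0.45 on this scale.

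Eda2r (ENSMUSG00000034457) is a protein-coding gene on the minus strand of chromosome X, between positions 97333840 and 97377216 of GRCm38. The 243 bases before its start, chrX:97377217-97377459, are shown because Eda2r carried the 1 change of the comparison that is described here. They are printed from RefSeq (GRCm38.p6, minus strand, 5′ to 3′), with the letters TATAAA in capitals.

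Eda2r promoter: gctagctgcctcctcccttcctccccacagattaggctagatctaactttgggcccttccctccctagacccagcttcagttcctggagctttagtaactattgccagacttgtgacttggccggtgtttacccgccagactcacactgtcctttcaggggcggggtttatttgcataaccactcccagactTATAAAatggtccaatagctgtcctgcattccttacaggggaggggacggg

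The window holds TATAAA once, with its first base 51 bases before the gene start given above, and 58 bases before the RefSeq start, which lies 7 bases inside the gene. TATAAA was found on either strand in 12.2% of 32851 promoter windows cut the same way, and in none of the windows of 11 core p53 target genes that had one. A p53 half-site was searched on both strands, and was found in 6.93% of all windows and for 4 of those 11 genes. The 6.93% counts windows and the 4 counts genes, so these values cannot be set against each other. The Eda2r window held 0 such half-sites.

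Reads assigned to Eda2r numbered 46, 45 and 61 in the 1 Gy libraries, against 18, 15 and 14 in the sham libraries. Scaled as CPM, that is counts per 1000000 counts of a library on the genes tested, adjusted by the TMM factor, its level was 79.3, 89.6 and 91.7 CPM after 1 Gy, against 34.3, 23.6 and 25.4 CPM after sham. All 3 libraries after 1 Gy were high and all 3 after sham were low, without overlap. The means were 86.9 ± 6.65 CPM after 1 Gy and 27.8 ± 5.77 CPM after sham (SD, n = 3 each). The log2 fold change was 1.66 ± 0.22 (SE), a 3.15-fold higher level with a 95% interval of the log2 value between 1.2 and 2.11, and the edgeR adjusted p was 0.000269. The exact two-sided permutation test over the 6 libraries gave p = 0.1, the smallest that 20 splits allow. Each library was deposited as 4 files, and single files held 8 to 23 Eda2r reads after 1 Gy and 1 to 6 after sham. No annotated gene overlaps Eda2r. The call rests in part on sham library 2: without it the log2 fold change was 1.54 and the edgeR adjusted p 0.0543.

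Per kilobase of exon the level of Eda2r was 13.5, 15.2 and 15.6 CPM after 1 Gy and 5.83, 4.00 and 4.31 CPM after sham. Among the 13502 autosomal protein-coding genes tested, the mean level per exonic kilobase lay at percentile 69.7 after 1 Gy and at percentile 2.4 after sham. After sham it was therefore among the lowest tested genes, and after 1 Gy in the upper part of the range.

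**Figure D1:**
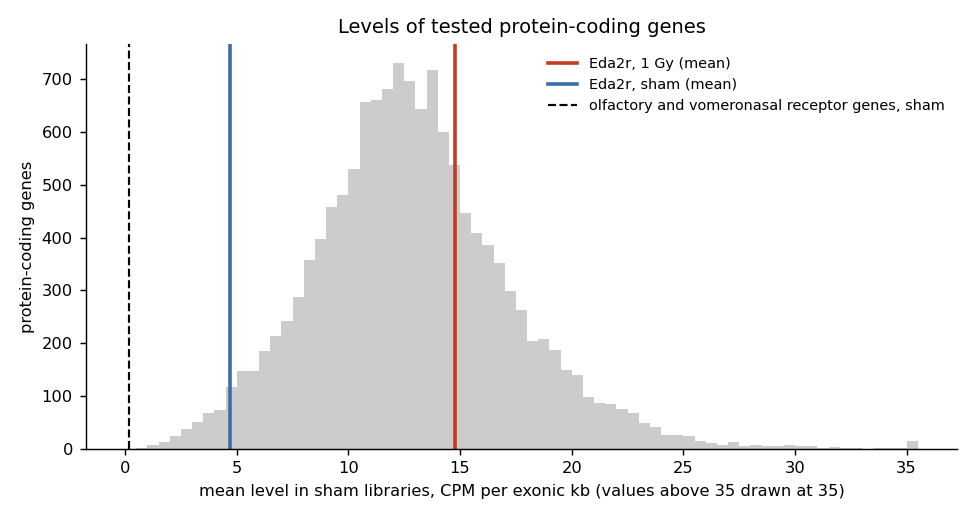
Histogram of mean levels over the 3 sham libraries, in CPM per exonic kilobase, of tested autosomal protein-coding genes. Vertical lines give the mean Eda2r level after 1 Gy (14.8) and after sham (4.71), and the summed level of olfactory and vomeronasal receptor genes in sham libraries (dashed). Eda2r lies at the low edge of the histogram after sham and right of its peak after 1 Gy.

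Levels of different genes were close to each other. The middle 90% of those protein-coding genes lay between 6.04 and 20.5 CPM per exonic kilobase, with a median of 12.6. Olfactory and vomeronasal receptor genes (1447 protein-coding genes outside chromosomes X and Y), which cerebellum is not known to use, had low levels. They summed to 0.197 to 0.239 CPM per exonic kilobase after 1 Gy and 0.167 to 0.234 after sham. Tested protein-coding genes summed to 11.8 to 12.1 in all 6 libraries. Genes split by level into low, middle and high groups of 4501, 4500 and 4501 had no overlap between the groups in 9.55%, 10.1% and 9.24% of cases, against 9.49% of all genes tested. Mitochondrial genes took 0.00449% to 0.00629% of gene counts after 1 Gy and 0.00496% to 0.00713% after sham. Whether these counts are ordinary mRNA levels is not settled by the files, and what the narrow range of levels means for the fold changes was not tested.

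Facts of the libraries bear on these results. Gene counts per library were 540652 to 713171 after 1 Gy and 564562 to 685513 after sham, and 500239 to 666116 of them per library fell on the genes tested. On the CPM scale used here 1 read was worth 1.5 to 1.99 CPM. Of the uniquely mapped reads, 70.4% to 74.8% were assigned to no gene. The counts do not separate introns from regions between genes among these reads. Of strand-assigned reads, 50.5% to 50.9% were on 1 strand. Summed Y-linked levels were 485, 37.8 and 492 CPM after 1 Gy, against 13.4, 11 and 18.1 CPM after sham. Sex-chromosome expression thus differed between the groups, and its part in a difference cannot be fully told apart from that of radiation, which is why X- and Y-linked genes were left out. Eda2r is X-linked: 1 Gy library 3, low in Y-linked reads like the sham libraries, held 89.6 CPM. With 1 Gy libraries 2 and 4 both left out, its log2 fold change was 1.70 ± 0.30 (SE) and the edgeR adjusted p 0.0126. That fit has 1 library after 1 Gy, which is assumed to vary like the 3 sham libraries. With the Y-linked level as a covariate over all 6 libraries it was 1.72 ± 0.38 (SE) with an edgeR adjusted p of 0.998, and no gene was called.

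Markers of cerebellar cell types were present in all libraries, and all members of each list had a read in at least 1 library. The 15 markers of mature granule neurons summed to 1429 to 1464 CPM after 1 Gy and 1400 to 1647 CPM after sham. The 14 markers of Purkinje neurons summed to 1331 to 1385 CPM after 1 Gy and 1263 to 1518 CPM after sham. The 19 markers of microglia and macrophages summed to 508 to 623 CPM after 1 Gy and 547 to 605 CPM after sham. These sums overlapped between the groups. A library of each group stood apart in tissue outside the cerebellar cortex. The 13 markers of choroid plexus and ependyma summed to 662, 584 and 308 CPM after 1 Gy, against 578, 589 and 567 CPM after sham, with 1 Gy library 4 low. Prlr, a prolactin receptor gene strongly used in choroid plexus, had 101, 67 and 18 reads after 1 Gy, against 66, 88 and 84 after sham. Members of the list differed in this. Kl was also lowest in 1 Gy library 4, with 61, 42 and 27 reads after 1 Gy, against 47, 50 and 50 after sham. Ttr was not, with 8, 21 and 10 reads after 1 Gy, against 6, 15 and 12 after sham. Foxj1 was not either, with 19, 14 and 21 reads after 1 Gy, against 12, 32 and 16 after sham. The 14 markers of brainstem and midbrain summed to 243, 229 and 164 CPM after 1 Gy, against 214, 482 and 190 CPM after sham, with sham library 2 high. Hoxb3, a hindbrain patterning gene, had 1, 1 and 0 reads after 1 Gy, against 0, 18 and 1 after sham. Without 1 Gy library 4 the log2 fold change of Eda2r was 1.61 with an edgeR adjusted p of 0.000766, and 4 genes were called. The autosomal one among these was Dnah12, an axonemal dynein gene of motile cilia, with a log2 fold change of 1.68 and an edgeR adjusted p of 0.0195. The part of either tissue in the other results was not tested.

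**Figure D2:**
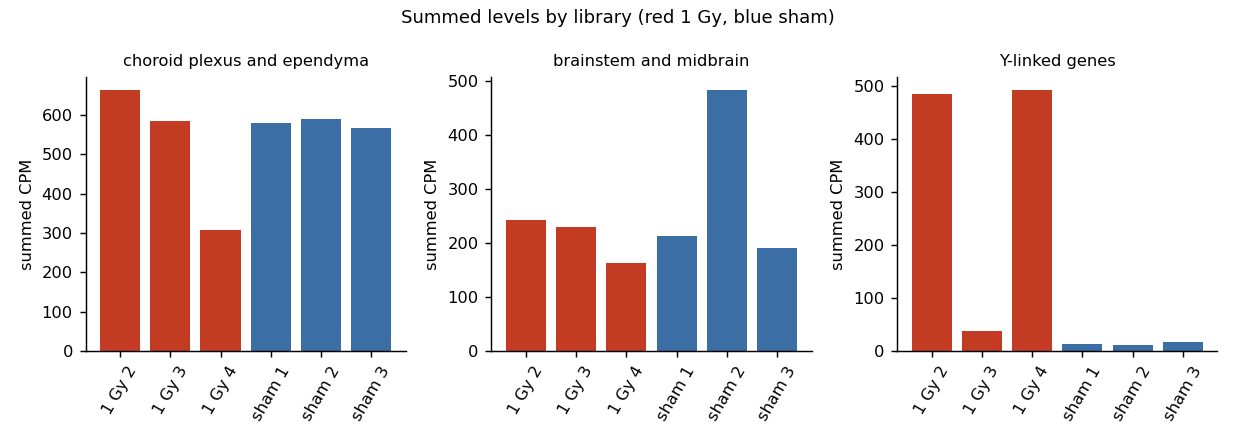
Summed level in CPM of choroid plexus and ependyma markers, of brainstem and midbrain markers and of Y-linked genes, with 1 bar per library and 1 Gy libraries (red) left of sham libraries (blue). 1 Gy library 4 is low in the first panel at 308 CPM, sham library 2 is high in the second at 482 CPM, and 1 Gy libraries 2 and 4 are high in the third.

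The best known p53 targets on autosomes did not pass the test. Of 14 core targets, 13 had enough counts to be tested and Gdf15, a secreted stress cytokine, did not. None of the 13 was called, 8 had a positive log2 fold change against 49.5% of all genes, and each edgeR adjusted p was 0.998. For 12 of the 13 the 95% interval ended below a log2 value of 1, so that a doubling lay outside it, and the exception was Cdkn1a. Most genes had such intervals. Of all genes tested, 88.2% had an interval that lay between a halving and a doubling, which is a stricter condition. These intervals borrow information across genes, and use a smaller multiplier of the SE than 4 residual degrees of freedom would.

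Cdkn1a, the p21 inhibitor of cyclin-dependent kinases, had 43.1, 49.8 and 40.6 CPM after 1 Gy, against 30.5, 26.7 and 34.4 CPM after sham. Every 1 Gy library lay above every sham library. The log2 fold change was 0.54, with a 95% interval between 0.02 and 1.05, and the edgeR p was 0.0425 unadjusted. Mdm2, the ubiquitin ligase that degrades p53 and is itself a p53 target, had 62.1, 69.7 and 78.2 CPM after 1 Gy, against 74.4, 75.4 and 70.7 CPM after sham. Its groups overlapped, and its log2 fold change of -0.06 had an interval between -0.44 and 0.31.

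Ccng1, Btg2 and Plk2 are core targets with roles in growth arrest or the cell cycle. Ccng1, cyclin G1, had 67.2, 71.7 and 40.6 CPM after 1 Gy, against 55.3, 42.4 and 38.1 CPM after sham, with overlap and a log2 fold change of 0.38. Btg2, an antiproliferative gene, had 46.6, 45.8 and 25.6 CPM after 1 Gy, against 30.5, 29.9 and 30.8 CPM after sham. Libraries 2 and 3 after 1 Gy were above all sham libraries and library 4 was below them. Plk2, a stress-responsive polo-like kinase, had 63.8, 55.8 and 61.7 CPM after 1 Gy, against 43.9, 51.9 and 56.2 CPM after sham, and its groups overlapped.

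Apoptotic targets did not share a direction. Bbc3, the BH3-only protein PUMA, had 15.5, 13.9 and 45.1 CPM after 1 Gy, against 43.9, 25.1 and 41.7 CPM after sham, with 1 Gy library 4 apart from the other two. Its log2 fold change was -0.48, with an interval between -1.18 and 0.23, and was -1.28 without 1 Gy library 4 and -0.21 without 1 Gy library 2. Bax, which permeabilises the mitochondrial membrane, had 37.9, 25.9 and 31.6 CPM after 1 Gy, against 26.7, 28.3 and 29.0 CPM after sham. Bax overlaps another annotated protein-coding gene, Gm45808. Reads set apart as ambiguous between genes, 0.988% to 1.18% of uniquely mapped reads in BL6, were counted for no gene. What the overlap means for the Bax count was not tested. Fas, a death receptor, had 34.5, 25.9 and 33.1 CPM after 1 Gy, against 30.5, 42.4 and 14.5 CPM after sham. Tnfrsf10b, the mouse TRAIL receptor, had 50.005, 73.7 and 52.6 CPM after 1 Gy, against 47.7, 39.3 and 50.7 CPM after sham, with a log2 fold change of 0.34. The groups overlapped for Bax, Fas and Tnfrsf10b.

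**Figure D3:**
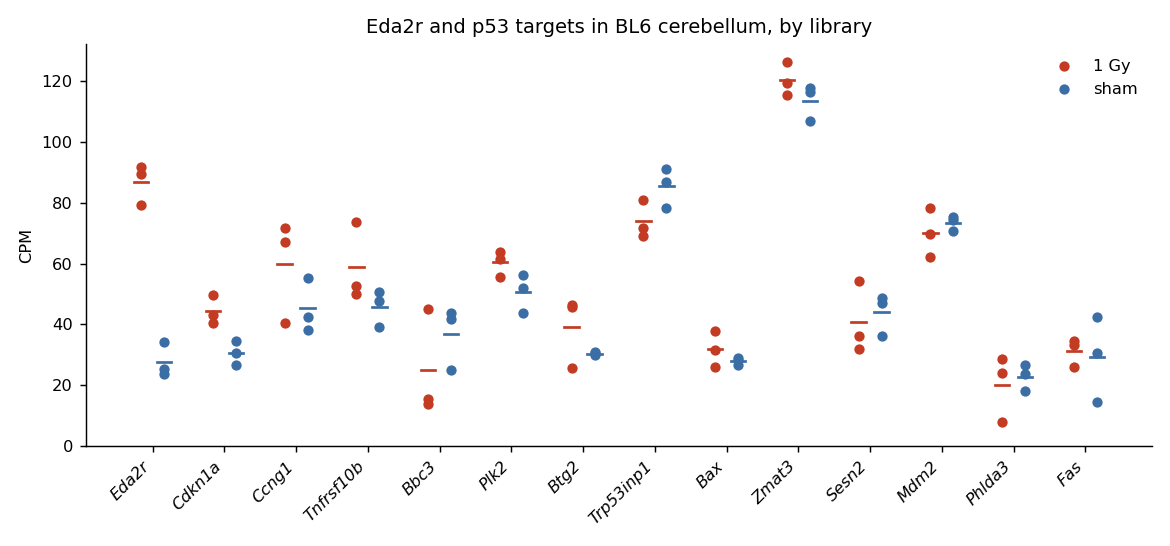
Level in CPM of Eda2r and the 13 core autosomal p53 targets tested, with 1 point per library and a bar at the mean of the 3 libraries of each group (1 Gy red, left; sham blue, right). Eda2r and Cdkn1a have no overlap between the groups, and Eda2r has the widest gap between its means, 86.9 after 1 Gy and 27.8 CPM after sham.

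**Figure D4:**
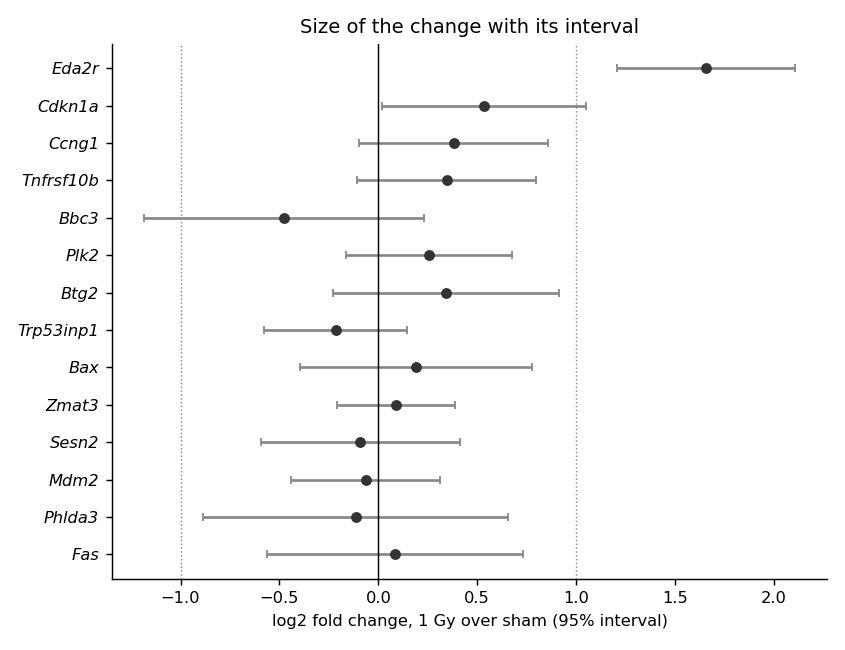
Log2 fold change of 1 Gy over sham with its 95% interval from edgeR for the same genes, with dotted lines at a doubling and a halving. The Eda2r interval, between 1.2 and 2.11, lies above the line at 1, and that of Cdkn1a, between 0.02 and 1.05, crosses it.

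Over a wider list of 40 autosomal p53 targets, 39 were tested and none was called. Positive log2 fold changes were seen for 25 of the 39, with a median of 0.08 against -0.0029 over all genes. With the Y-linked level as a covariate, 20 of the 39 were positive. Gadd45a, which p53 and other stress pathways control, was not in this list. It was placed with the immediate early genes and had a log2 fold change of -1.15. Psrc1, Cdkn1a and Tigar had no overlap between the groups in the higher direction (4.61% of all genes) and Apaf1 in the lower (4.88%). Psrc1, a mitotic spindle protein gene, had 36.2, 39.8 and 33.1 CPM after 1 Gy, against 9.54, 23.6 and 19.9 CPM after sham. Its log2 fold change of 0.99 ± 0.33 (SE) had an unadjusted edgeR p of 0.00483 and an adjusted p of 0.998. Apaf1, the scaffold of the apoptosome, had 72.4, 85.7 and 84.2 CPM after 1 Gy, against 89.6, 101 and 105 CPM after sham. The median half-width of the 95% interval was 0.48 over the p53 targets and 0.45 over all genes tested, on the log2 scale.

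Upstream of these targets, 27 p53 regulators and damage kinases were tested, and none was called. Positive values were seen for 15 of them, with a median of 0.01. Trp53 itself, which encodes p53, had 48.3, 43.8 and 48.1 CPM after 1 Gy, against 47.7, 73.9 and 76.1 CPM after sham. Its groups overlapped through sham library 1, and its log2 fold change was -0.50 with an unadjusted edgeR p of 0.0269. Of 39 DNA repair genes tested, none was called, 26 were positive and the median was 0.06. Exo1, a nuclease of resection and mismatch repair, had 46.6, 35.9 and 25.6 CPM after 1 Gy, against 22.9, 25.1 and 25.4 CPM after sham, and Pole, the catalytic subunit of DNA polymerase epsilon, likewise had no overlap. These 2 of 39 are near the 4.61% of all genes.

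Cell death genes other than p53 targets also gave no call. Of 21 mitochondrial apoptosis genes tested, 8 were positive and 13 negative, with a median of -0.03. Bad, Bcl2 and Mcl1 had no overlap in the lower direction, 3 of 21 against 4.88% of all genes. Bad, a BH3-only protein that promotes death, had 19.0, 15.9 and 22.6 CPM after 1 Gy, against 26.7, 39.3 and 25.4 CPM after sham. Mcl1, which protects from apoptosis, had 58.6, 49.8 and 61.7 CPM after 1 Gy, against 70.6, 73.9 and 65.2 CPM after sham. None of them passed the test. Of 21 death receptor and adaptor genes tested, 12 were positive and the median was 0.03.

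Of the 17 pathway lists, genes of cell division had the most members without overlap in the higher direction, 5 of 34 G2/M and mitosis genes tested, namely Mki67, Ccnb1, Ect2, Cdk1 and Kif11, against 4.61% of all genes. In this list 25 were positive and the median log2 fold change was 0.17, and none was called. Mki67, the proliferation marker Ki-67, had 93.1, 43.8 and 63.2 CPM after 1 Gy, against 42.0, 26.7 and 41.7 CPM after sham. Its lowest 1 Gy library was just above its highest sham library, and the log2 fold change was 0.89 ± 0.25 (SE) with an edgeR adjusted p of 0.998. Cenpf, a kinetochore protein gene, had 65.5, 43.8 and 31.6 CPM after 1 Gy, against 38.1, 15.7 and 16.3 CPM after sham, with overlap through sham library 1. Ccnb1, cyclin B1, had 27.6, 21.9 and 24.1 CPM after 1 Gy, against 15.3, 7.86 and 18.1 CPM after sham. The 15 markers of granule neuron progenitors, the dividing precursors of granule neurons in young cerebellum, summed to 853 to 918 CPM after 1 Gy. After sham they summed to 849 to 902 CPM, with overlap. Members weighed unequally in this sum. Atoh1 had 6, 4 and 9 reads after 1 Gy, against 5, 3 and 4 after sham. Pax6 had 113, 103 and 130 reads after 1 Gy, against 109, 118 and 97 after sham. Of 29 genes of the G1/S transition and replication, 20 were positive with a median of 0.08.

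Most stress and signalling lists were close to the median of all genes. Positive values were seen for 15 of 29 immediate early genes, 8 of 19 heat shock genes, 9 of 17 genes of NF-kB and cytokines, 10 of 25 interferon response genes and 11 of 18 hypoxia genes tested. The medians of these lists lay between -0.05 and 0.04, and no member was called. Gadd45a, a growth arrest gene that p53 and other stress pathways control, had 6.90, 12 and 16.5 CPM after 1 Gy, against 24.8, 28.3 and 27.2 CPM after sham. All 1 Gy libraries were below all sham libraries, with a log2 fold change of -1.15 ± 0.39 (SE) and an edgeR adjusted p of 0.998. Fos, the activity-dependent transcription factor, had 27.6, 21.9 and 27.1 CPM after 1 Gy, against 47.7, 37.7 and 43.5 CPM after sham, again without overlap. These were 2 of 29 immediate early genes in the lower direction, against 4.88% of all genes, and 1 of 29 had no overlap in the higher direction. Of 19 oxidative stress genes 16 were positive with a median of 0.18, and 1 of them, Osgin1, had no overlap in the higher direction, near the 4.61% of all genes. Of 21 genes of the integrated stress and unfolded protein responses 12 were positive with a median of 0.12.

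In the hedgehog pathway, which drives granule progenitor division and is active in the SmoA1 tumours, 13 of 19 genes tested were negative with a median of -0.07, and none was called. Hhip, an inhibitor that binds hedgehog ligands, had 114, 106 and 104 CPM after 1 Gy, against 130, 134 and 136 CPM after sham. Gli1, a transcription factor and target of the pathway, had 60.4, 45.8 and 52.6 CPM after 1 Gy, against 76.3, 56.6 and 43.5 CPM after sham. Gli1 overlapped. In this list 3 of 19, Hhip among them, had no overlap in the lower direction, against 4.88% of all genes. In the higher direction 1 of 19 had none, against 4.61% of all genes. Of 22 genes of the clock and the glucocorticoid response 12 were positive with a median of 0.07, and Plin4, Bhlhe41, Per3 and Ciart had no overlap in the lower direction, 4 of 22 against 4.88% of all genes. Plin4, a lipid droplet protein gene, had 48.3, 55.8 and 43.6 CPM after 1 Gy, against 78.2, 69.1 and 68.9 CPM after sham. Of 21 sterol synthesis genes 10 were positive with a median of -0.01.

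**Figure D5:**
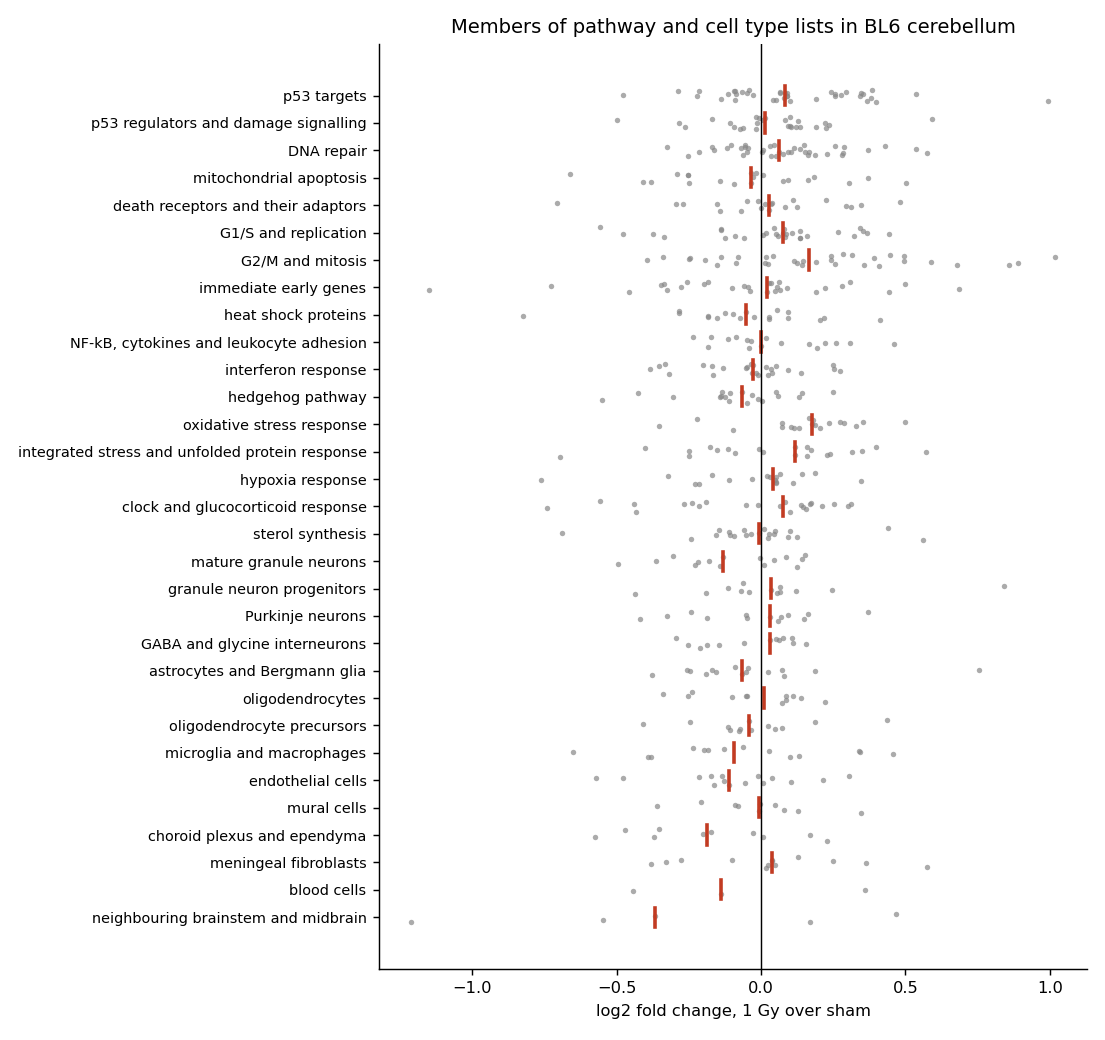
Log2 fold change of 1 Gy over sham for each autosomal member tested (grey points) of 17 pathway lists and 14 cell type marker lists, with the median of each list as a red bar. Medians lie between -0.37 (brainstem and midbrain, 5 members tested) and 0.18 (oxidative stress response), and no member was called.

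Whether in a list or not, the autosomal protein-coding genes with the smallest p among those without overlap between the groups were described, 8 per direction. None of the 16 was called. Mki67 and Hsp90ab1, which are among them, are also members of the G2/M and mitosis list and of the heat shock list. Gpr27, an orphan G protein-coupled receptor on chromosome 6 (99692679 to 99695066, GRCm38), had 32.8, 31.9 and 51.1 CPM after 1 Gy, against 11.4, 12.6 and 12.7 CPM after sham. Its log2 fold change of 1.66 ± 0.35 (SE) was as high as that of Eda2r, with an edgeR adjusted p of 0.198. It passed only where the filter on low counts was loosened, with an edgeR adjusted p of 0.0118 with no filter and 0.0432 at a mean of at least 1 CPM. Il27ra, a subunit of the interleukin 27 receptor, had 5.17, 7.97 and 4.51 CPM after 1 Gy, against 26.7, 20.4 and 19.9 CPM after sham. Il27ra had the most negative log2 fold change of all genes tested, -1.91 ± 0.49 (SE), with an edgeR adjusted p of 0.949, and it overlaps Palm3. Hsp90ab1, a constitutive cytosolic chaperone, had 53.5, 29.9 and 45.1 CPM after 1 Gy, against 74.4, 73.9 and 83.4 CPM after sham, with a log2 fold change of -0.82.

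The other higher genes were Prr12, Mki67, Fyco1, Oplah, Dmac2, Edem3 and 1700025G04Rik, with log2 fold changes between 0.43 and 0.89. Prr12, a nuclear protein gene, had 138, 127 and 158 CPM after 1 Gy, against 80.1, 108 and 77.9 CPM after sham. Its edgeR adjusted p was 0.755, and 0.0125 where each of the 4 files was counted as a replicate. Edem3, which acts in degradation of misfolded glycoproteins, had 117, 89.6 and 126 CPM after 1 Gy, against 61.0, 77.0 and 83.4 CPM after sham. The other lower genes were Cyp2j12, Col6a4, Gsap, Ptpn13, Otof and Npr1, with log2 fold changes between -1.25 and -0.52. Cyp2j12, a cytochrome P450 gene, had 15.5, 19.9 and 13.5 CPM after 1 Gy, against 43.9, 42.4 and 29.0 CPM after sham. Npr1, a receptor for natriuretic peptides, had 55.2, 23.9 and 42.1 CPM after 1 Gy, against 74.4, 66.0 and 72.5 CPM after sham. Fyco1, Oplah and Gsap overlap other protein-coding genes, and what these overlaps mean for their counts was not tested.

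To ask whether the response of normal cerebellum differed from that of SmoA1 tumours, the difference between the 2 responses was tested over 12 libraries as an edgeR interaction. It was called for 193 of 18188 genes (1.06%). Within SmoA1 tumours, 363 of 16690 genes were called for 1 Gy against sham (2.17%). Eda2r was among the genes whose response differed, with a BL6 minus SmoA1 difference of 1.70 ± 0.29 (SE) on the log2 scale and an edgeR adjusted p of 0.00265. In this fit Eda2r averaged 84.5 ± 6.83 CPM after 1 Gy and 27.1 ± 5.46 CPM after sham in BL6 cerebellum (SD, n = 3 each). In SmoA1 tumours it averaged 81.1 ± 11.5 CPM after 1 Gy and 83.7 ± 12.6 CPM after sham (SD, n = 3 each). Sham tumours were near irradiated cerebellum in level, and that difference was not tested. Y-linked levels differed among SmoA1 libraries too, and with that level as a covariate the difference was 1.75 with an edgeR adjusted p of 0.00823. That fit assumes the same Y-linked effect in both tissues. In the BL6 libraries alone the covariate gave a log2 fold change of 1.72 with an edgeR adjusted p of 0.998.

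None of 14 core autosomal p53 targets passed the test of a difference between the 2 responses, with a smallest edgeR adjusted p of 0.188 for Cdkn1a, and 9 of the 14 differences were negative. Cdkn1a averaged 43.3 CPM after 1 Gy and 29.8 CPM after sham in BL6, and 44.5 CPM after 1 Gy and 58.9 CPM after sham in SmoA1. Its difference was 0.93 ± 0.32 (SE). Plk2 averaged 58.8 CPM after 1 Gy and 49.4 CPM after sham in BL6, and 82.4 CPM after 1 Gy and 43.7 CPM after sham in SmoA1. Its difference was -0.66 ± 0.28 (SE), with an edgeR adjusted p of 0.359 and a 95% interval between -1.23 and -0.08. Fas averaged 30.3 CPM after 1 Gy and 28.4 CPM after sham in BL6, and 37.7 CPM after 1 Gy and 17.5 CPM after sham in SmoA1, with a difference of -1.01 ± 0.45 (SE) and an edgeR adjusted p of 0.381.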

How the data were processed

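RNA from cerebellum was sequenced after RNeasy extraction and ribosomal depletion, per the labels. The authors deposited raw counts per gene, unstranded and for each strand, for 53379 identifiers. The submitters' processing notes list Cell Ranger 5.0.1 and the mm10 build, whereas the file layout is that of STAR gene counts, and no aligner is named in the labels or headers. Symbols and positions came from GENCODE M21 (53274 identifiers matched).

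The 4 files of a numbered sample, which titles call biological replicates, varied no more than draws from 1 library (chi-square per degree of freedom 0.8986 to 0.9382 in BL6) and were summed. Unassigned reads, 70.4% to 74.8% of uniquely mapped ones, stayed out of library sizes. Unstranded counts were filtered with filterByExpr, scaled by TMM and tested with the edgeR 4.0.16 quasi-likelihood test in R 4.3.3, with 4 residual degrees of freedom and Benjamini-Hochberg adjustment over all genes tested. CPM values are scaled within each fit. SE and SD include the spread between libraries. Calculations were checked on simulated data. Lists are described by counts and medians, with no test of a list. Named were Eda2r, autosomal genes called, the 8 smallest p per direction among autosomal protein-coding genes without overlap at a mean of at least 1 CPM, core p53 targets and 2 members per list by smallest p, of which some are given. Psrc1, Apaf1, Mcl1, Exo1, Ccnb1, Gli1 and members named only for their lack of overlap include genes outside that rule, chosen after their values were seen. The members and lists were chosen with earlier results of these data known. Alternatives were DESeq2 1.42.0, other scaling factors, filters, thresholds and strand column, a replicate block, each library left out, part 1 only, each file as a replicate, BL6 and SmoA1 in 1 fit and a Y-linked covariate. Leaving out 1 Gy libraries 2 and 4 together was added after seeing the data.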

Additional observations from a re-analysis of the deposited data

Results flagged for a closer look

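Among Eda2r and the 14 core p53 targets, only Eda2r had a change after 1 Gy that differed between 2 tissues under the same treatment, by a test of the difference itself. Other genes were not looked at for this flag, and the same test called 193 of 18188 genes (1.06%). The BL6 minus SmoA1 difference was 1.70 on the log2 scale (edgeR interaction over 12 libraries, adjusted p 0.00265), with the level higher in all 3 irradiated BL6 libraries than in all 3 sham BL6 libraries. In SmoA1 tumours the log2 fold change was -0.06 (edgeR adjusted p 0.939).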

How the results depend on the processing

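The count of 2 genes called was 1 with DESeq2, 16 with no filter on low counts (9 autosomal), 8 at a mean of at least 1 CPM (2 autosomal), 0 with the strand column, 0 with part 1 only, 1 with BL6 and SmoA1 in 1 fit, 0 with the Y-linked covariate, 1 without 1 Gy libraries 2 and 4, and 0 to 6 with single libraries left out (0 without sham library 2, 4 without 1 Gy library 4, 6 without 1 Gy library 3, sham library 1 or sham library 3). It was 2 with other scaling factors, with thresholds of 0.1 and 0.01, and with each file as a replicate, where 1 was autosomal (Prr12). The replicate block gave 7 calls, 5 of them autosomal (Cenpf, Dnah3, D10Wsu102e, Dnah12 and Frmpd2), and 1.78 for Eda2r. Only the numbers 2 and 3 occur in both groups and their deviations correlated at -0.0366 and 0.0107, so the block shares a number only. The Eda2r log2 fold change was 1.72 with the Y-linked covariate, where it lost its call, and 1.54 to 1.82 with single libraries left out, losing the call without sham library 2. With the strand column, part 1 only or each file as a replicate it had too few counts to be tested. Positive p53 targets, 25 of 39, were 10 of 19 with the strand column, 6 of 11 with part 1 only and 6 of 10 with files as replicates. They numbered 23 to 28 with single libraries left out. With the Y-linked covariate 20 of 39 were positive, and without 1 Gy libraries 2 and 4 it was 22 of 40. The BL6 minus SmoA1 difference of Eda2r was 2.17 with part 1 only (adjusted p 0.0963), 1.57 to 1.90 with single libraries left out, and had no value with the strand column. The receptor gene level, 0.207 CPM per exonic kilobase over all 6 libraries, was 0.246 over olfactory and 0.123 over vomeronasal receptors. Of 232 values of 29 named autosomal genes under DESeq2, other factors or a left-out library, 5 changed sign: Sesn2 without 1 Gy library 2 or 3, Mdm2 without 1 Gy library 2, Phlda3 without 1 Gy library 3 and Fas without sham library 3. With single libraries left out the log2 fold changes were -0.37 to 0.046 for Sesn2, -0.17 to 0.018 for Mdm2, -0.45 to 0.22 for Phlda3 and -0.23 to 0.48 for Fas. A left-out library moved the log2 fold change of 12 of the 29 by over 1.5 times: these 4, Bbc3 (-1.28 to -0.21), Ccng1 (0.24 to 0.62), Tnfrsf10b (0.17 to 0.44), Btg2 (0.19 to 0.60), Bax (0.05 to 0.30), Mki67 (0.59 to 1.09), Plk2 (0.17 to 0.33) and Zmat3 (0.04 to 0.12). Depth limits low genes, since 1 read is worth 1.5 to 1.99 CPM. For these shifts the cause was not tested.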
